A study of Mus musculus with 4 samples.

Results

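The 10 integrin subunit genes described here were taken by symbol from the annotation of the array's probe sets: Itgb3, Itgav, Itgb1, Itgb2, Itgb5, Itgam, Itgax, Itgal, Itga4 and Itga5, out of 18193 named genes. All 10 were found, on 31 probe sets that each carried exactly 1 gene symbol. The cells were grown from the marrow of C57BL/6 mice aged 8 to 10 weeks. The first group held bone marrow macrophages (BMM), kept for 3 days with the macrophage growth factor M-CSF at 100 ng/ml. The second held pre-osteoclasts (pOC), mononuclear cells positive for tartrate-resistant acid phosphatase, obtained from BMM after 2 days with M-CSF and the osteoclast-inducing cytokine RANKL, each at 100 ng/ml. The other 2 groups were multinucleated mature osteoclasts, grown from pOC for 2 more days with M-CSF and RANKL on culture plastic (mOCp) or on slices of dentin, which the cells resorb (mOCd). Each stage was measured on 1 array, so 4 arrays were available in all, and whether an RNA came from 1 mouse or a pool is not given in the sources used here. No test between stages is possible, and precision is limited by having 1 array for each. The effect of RANKL cannot be told apart from that of the added culture days. In these bulk samples, fewer cells of a type and less RNA per cell cannot be told apart.

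Integrins are cell surface receptors built from an alpha and a beta chain, and they tie extracellular matrix or other cells to the actin skeleton. In osteoclasts the pair of Itgav and Itgb3, the vitronectin receptor, recognises matrix proteins that carry an RGD motif and is known for its place in the ring of podosomes that seals the resorbed area. Itgb5 is another partner of Itgav and has been described on osteoclast precursors. Itgb2 pairs with Itgal (LFA-1), Itgam (Mac-1) or Itgax on leukocytes, while Itgb1 pairs with Itga4, Itga5 and other alpha chains to bind fibronectin and cell surface ligands.

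The values are signal intensities per probe set. On each array the median of the non-control probe sets, 12.7 (BMM), 14.5 (pOC), 14.8 (mOCp) and 15.8 (mOCd), served as a floor below which values were not ordered. A gene was called higher or lower where the floored intensities differed at least 2-fold and the brighter one reached the 75th percentile of its array (87.0, 81.5, 77.8 and 79.1 in the same order). A ratio with 1 value at the floor is a bound and is written as "at least". Where a gene had several probe sets, the one with the highest mean floored log2 intensity stood for it. The disagreement between a gene's probe sets was the only guide to error. These probe sets read the same RNA on the same array. The measure therefore holds no spread between cultures, mice or arrays and cannot replace replicates. It used the 2 brightest probe sets of a gene among those above the floor on both arrays that reached the 75th percentile on either. The SD of the difference between their log2 ratios was divided by the square root of 2, which gives an SD per probe set. This SD was 0.328 for pOC over BMM, 0.306 for mOCp over pOC, 0.445 for mOCd over pOC and 0.384 for mOCd over mOCp.

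The osteoclast markers checked the labels. Of 10 such genes 5 exceeded the floor in BMM and all 10 did in pOC, mOCp and mOCd, and their summed intensity was 254.1 in BMM against 33679.6 to 51699.8 in the other cultures. Across all named genes pOC over BMM gave 809 higher and 956 lower, mOCp over pOC 633 and 820, mOCd over pOC 779 and 886, and mOCd over mOCp 149 and 176. These splits moved with the scaling. Median scaling gave 589 and 1216, 596 and 854, 636 and 1090, and 108 and 230 in the same order, and scaling to the bacterial control transcripts (spike-ins) gave 1034 and 789, 284 and 1655, 443 and 1596, and 193 and 146. Relative to pOC the spike-ins were brighter by 0.16 in BMM, 0.43 in mOCp and 0.35 in mOCd on the log2 scale. RNA quality was read from the control probe sets of the transferrin receptor, whose 3′ to 5′ ratio was 1.99 (BMM), 2.02 (pOC), 1.79 (mOCp) and 3.25 (mOCd). The same ratio for Actb and Gapdh ranged from 1.12 to 1.22 and from 0.743 to 0.815.

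Upstream sequence was matched for 7 of the 10 genes in RefSeq windows on build GRCm38.p6. No window was matched for Itgb3, Itgb2 and Itgal. The 250 bases before the annotated start are shown, 5′ to 3′, for the 4 genes with a window whose intensity differed at least 2-fold in some comparison. Capitals mark the letters of 6 motifs searched on both strands.
Itgav (chr2:83724147-83724396, + strand): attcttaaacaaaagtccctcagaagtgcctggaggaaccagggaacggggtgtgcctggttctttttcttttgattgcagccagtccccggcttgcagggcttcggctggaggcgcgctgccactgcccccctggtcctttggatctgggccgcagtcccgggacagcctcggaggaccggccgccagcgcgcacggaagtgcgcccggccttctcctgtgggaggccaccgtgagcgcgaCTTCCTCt
Itgb5 (chr16:33829415-33829664, + strand): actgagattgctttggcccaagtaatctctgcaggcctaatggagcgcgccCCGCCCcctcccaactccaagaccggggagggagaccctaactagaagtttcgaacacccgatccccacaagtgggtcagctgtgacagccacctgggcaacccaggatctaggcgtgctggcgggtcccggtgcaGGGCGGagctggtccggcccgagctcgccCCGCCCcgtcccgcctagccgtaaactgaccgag
Itgam (chr7:128062390-128062639, + strand): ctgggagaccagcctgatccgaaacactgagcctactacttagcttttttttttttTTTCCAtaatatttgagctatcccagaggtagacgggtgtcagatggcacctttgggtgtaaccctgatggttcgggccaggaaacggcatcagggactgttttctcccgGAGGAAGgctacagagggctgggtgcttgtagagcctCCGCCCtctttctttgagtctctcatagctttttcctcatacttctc
Itgax (chr7:128129300-128129549, + strand): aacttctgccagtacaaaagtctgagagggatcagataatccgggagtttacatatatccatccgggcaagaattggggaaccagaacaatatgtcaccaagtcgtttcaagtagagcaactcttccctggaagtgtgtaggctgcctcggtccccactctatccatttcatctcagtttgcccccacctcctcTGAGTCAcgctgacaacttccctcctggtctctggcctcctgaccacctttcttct
The motifs were TGANTCA for AP-1, TGGAAA for NFAT, GAGGAAG for PU.1, GGGCGG for the GC box, CACGTG for an E-box and TATAAA for a TATA box. The AP-1 letters occurred in Itgax, 56 bases before the start, and in 6.75% of 32851 windows of the same length. The PU.1 letters occurred in Itgam and Itgav (10.6% of windows) and the NFAT letters in Itgam, Itgb1 and Itga5 (18.6%). The GC box was found in Itgb5 at 3 places, and in Itgam, Itga4, Itgb1 and Itga5 (32.7%). None of the 7 windows held the E-box or TATA letters, found in 6.02% and 12.4% of windows. A match is a description of these letters and not a measured binding site.

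Itgb3, the beta chain of the vitronectin receptor, had the widest range of the 10 genes. Its brighter probe set read 1.0 (BMM), 92.1 (pOC), 480.8 (mOCp) and 2939.3 (mOCd). The BMM value lay under the floor, pOC was above it, and both mature cultures, grown in parallel from pOC, were above pOC, with dentin the higher. The other probe set kept that order, at 2.7, 56.1, 167.9 and 382.6. The sizes differed between them. Against BMM the pOC ratio was at least 7.25-fold on the first and at least 4.42-fold on the second, where 56.1 did not reach the 75th percentile. From pOC to mOCp Itgb3 was 5.22-fold higher on the first probe set and 2.99-fold on the second. From pOC to mOCd the ratios were 31.9-fold and 6.82-fold, and mOCd exceeded mOCp by 6.11-fold and 2.28-fold. In log2 terms the dentin to plastic difference was 2.61 and 1.19, both beyond the probe-set disagreement of 0.384.

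Platelets also carry Itgb3, paired with Itga2b, so markers of platelets and megakaryocytes were read beside it. Of 8 such markers with a probe set 4 (BMM), 7 (pOC), 5 (mOCp) and 4 (mOCd) exceeded the floor. Itga2b itself read 22.1, 25.5, 36.8 and 33.9, under the 75th percentile everywhere. The 7 measured markers had a median log2 ratio of 0.53 for mOCp over pOC, with Ppbp called higher (42.1 to 99.9), the direction Itgb3 also took. For mOCd over mOCp, where Itgb3 was higher, their median was -0.69. In that comparison 4 of the 7 had a value at the floor and 2 were eligible for a call. The platelet glycoproteins Gp9, Gp5 and Gp1bb read at most 36.3 on the probe sets that stood for them, and Treml1 was under the floor on all 4 arrays. The summed level of the 8 markers, most of it from the chemokine Pf4, was 2131.6 (BMM), 1633.0 (pOC), 2587.8 (mOCp) and 1382.8 (mOCd). The part of platelets or megakaryocytes in the Itgb3 values was not tested.

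**Figure D1:**
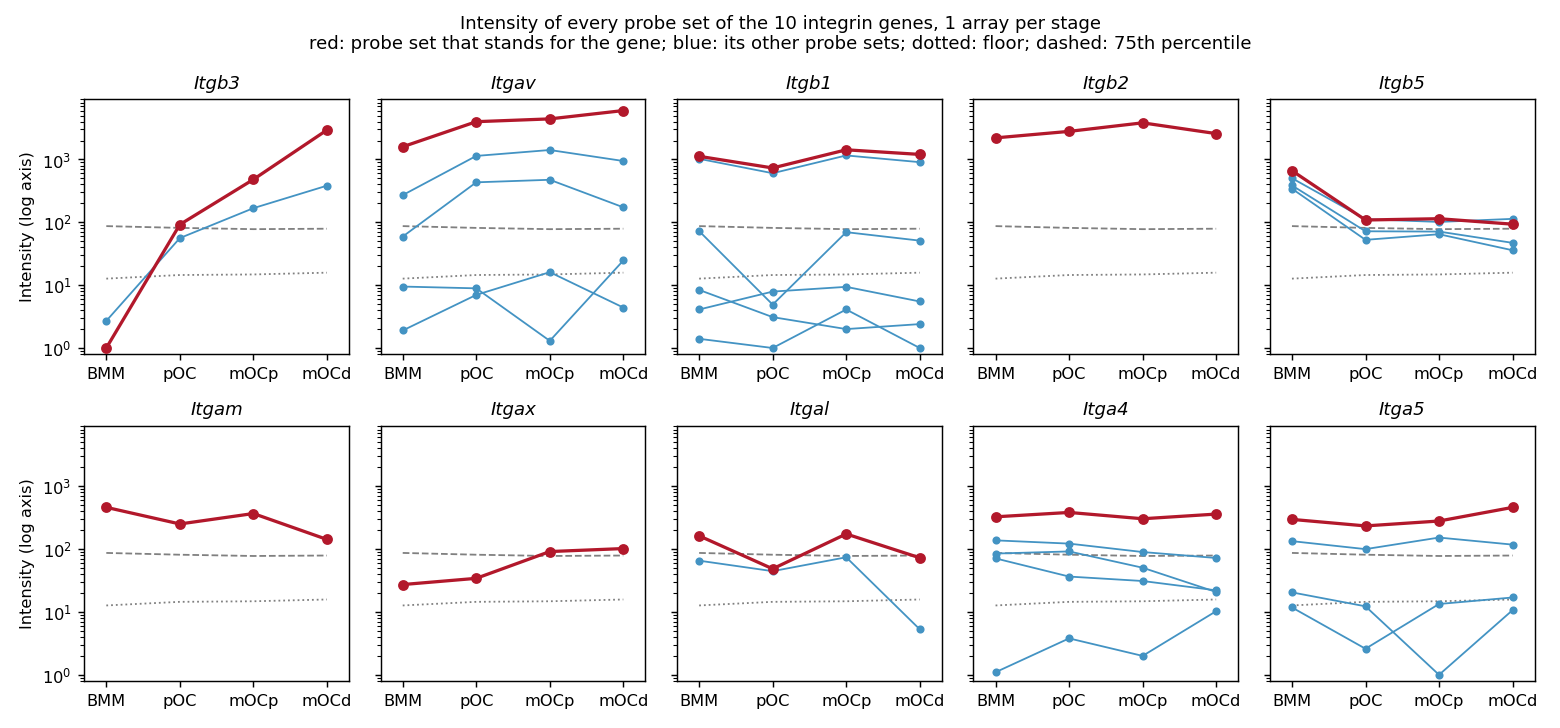
Intensity on a log axis against stage for every probe set of the 10 integrin genes, with values under 1 drawn at 1. Each point is 1 array, and the dotted and dashed lines are the floor and the 75th percentile of the array. Itgb3 climbs from under the floor in BMM to 2939.3 in mOCd on its brighter probe set, while the Itgb5 probe sets are highest in BMM.

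Itgav, the alpha chain shared by Itgb3 and Itgb5, was already bright in BMM. Its brightest probe set read 1592.8 (BMM), 3992.6 (pOC), 4420.7 (mOCp) and 5999.5 (mOCd). BMM was the lowest, pOC was 2.51-fold higher, and pOC and mOCp differed by 0.15 on the log2 scale, less than the probe-set disagreement. A pair of further probe sets showed the same step from BMM to pOC, at 4.2-fold (270.8 to 1138.7) and 7.3-fold (59.3 to 432.8). They parted on dentin. The brightest was 1.5-fold higher in mOCd than in pOC, whereas the others were 1.2-fold and 2.5-fold lower, at 945.1 and 173.2. The remaining 2 probe sets lay near or under the floor, with a highest value of 24.7. No direction for Itgav between pOC and mOCd can therefore be given from these probe sets.

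Itgb5, the other beta partner of Itgav, differed from Itgb3 in direction over the first step. The probe set that stood for it read 662.7 (BMM), 108.8 (pOC), 114.1 (mOCp) and 93.4 (mOCd), which is 6.09-fold lower in pOC than in BMM. BMM was the highest on all 4 probe sets of the gene, and the other 3 were 4.49-fold, 5.37-fold and 6.52-fold lower in pOC. Among pOC, mOCp and mOCd the representative values differed by at most 0.29 on the log2 scale, within the disagreement. The dimmest probe set read 64.6 in mOCp and 35.9 in mOCd.

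The beta chain of the leukocyte integrins, Itgb2, was high at every stage. It had 1 probe set, which read 2205.7 (BMM), 2798.1 (pOC), 3826.5 (mOCp) and 2579.4 (mOCd), and no comparison reached 2-fold. The order was BMM, mOCd, pOC, mOCp from low to high. The mOCd and pOC values differed by 0.12 on the log2 scale and could not be ordered, and mOCp stood 1.48-fold above mOCd.

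Its alpha partners did not share that course. Itgam, the alpha chain of Mac-1 (CD11b), read 462.2 (BMM), 251.4 (pOC), 368.4 (mOCp) and 142.7 (mOCd) on its only probe set. BMM was the highest and the dentin culture the lowest, 2.58-fold below the plastic culture. The difference between pOC and BMM, 1.84-fold lower, was short of 2-fold. Against pOC, mOCp was 1.47-fold higher and mOCd 1.76-fold lower. Median scaling put the pOC over BMM log2 ratio past 2-fold, at -1.07, and spike-in scaling did so for mOCd over pOC, at -1.17.

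Itgal, the alpha chain of LFA-1 (CD11a), followed a similar zigzag on its brighter probe set, at 162.8 (BMM), 48.6 (pOC), 174.4 (mOCp) and 72.8 (mOCd). It was 3.35-fold lower in pOC than in BMM, 3.59-fold higher in mOCp than in pOC, and 2.4-fold lower in mOCd than in mOCp. BMM and mOCp differed by 0.1 on the log2 scale, within the disagreement. The other probe set, at 65.5, 44.6, 74.2 and 5.3, never reached the 75th percentile and gave smaller steps, 1.47-fold lower and 1.66-fold higher, before a value under the floor on dentin.

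Itgax, the alpha chain known as CD11c, took another course. It read 27.3 (BMM), 34.3 (pOC), 91.5 (mOCp) and 102.1 (mOCd) on 1 probe set. Both mature cultures were higher than both earlier stages, by 2.67-fold for mOCp and 2.98-fold for mOCd over pOC, while mOCp and mOCd differed by 0.16 on the log2 scale. With the arrays scaled to the spike-ins the mOCp over pOC ratio was 0.98 on the log2 scale, just under 2-fold. Itgax is also a dendritic cell marker. Of 9 dendritic cell markers with a probe set 4 (BMM), 2 (pOC), 5 (mOCp) and 3 (mOCd) exceeded the floor, with a summed intensity of 281.9, 293.2, 296.7 and 193.1. The 5 measured ones had a median log2 ratio of 0.7 for mOCp over pOC and 0.12 for mOCd over pOC. In each of these comparisons 3 of the 5 had a value at the floor and 2 were eligible. Of those 2, 0 were called, beside 8.8% higher and 11.4% lower of all genes for mOCp, and 10.8% and 12.3% for mOCd. The 4 markers that were not measured, Flt3, Xcr1, Siglech and Cd209a, were under the floor on all 4 arrays. The part of such cells in the Itgax values was not tested.

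Macrophage and neutrophil markers were read beside Itgam and Itgal. The summed intensity of 12 macrophage markers was 31305.7 (BMM), 17317.6 (pOC), 27912.5 (mOCp) and 22577.1 (mOCd). A sum follows its brightest members and does not describe the whole list. The median log2 ratio of the 12 for pOC over BMM was -3.34, a larger drop than that of the sum. This sum was lowest in pOC and higher on plastic than on dentin, the order Itgal also took between these cultures on its brighter probe set. The other Itgal probe set read 44.6 in pOC and 5.3, under the floor, in mOCd. Itgam was lower in mOCd than in pOC where the sum was higher. The list itself was mixed for mOCd over pOC. Its median log2 ratio was -0.14 over the 12 markers and 0.58 over the 6 eligible ones. Of these 6, 0 were called higher and 1 lower, beside 10.8% and 12.3% of all genes. For mOCp over pOC 3 of 7 eligible macrophage markers were called higher and 0 lower, beside 8.8% and 11.4% of all genes. For mOCd over mOCp 0 of 7 were called higher and 3 lower, beside 2.15% and 2.55%, with a median of -0.89 over the 12 markers. Itgal was called in the same directions on its brighter probe set, and Itgam in the second comparison only. All 12 exceeded the floor in BMM, pOC and mOCp, and 10 did in mOCd. Adgre1, the F4/80 antigen, read 1581.9, 319.6, 1191.3 and 491.4. Of 9 neutrophil markers 7 exceeded the floor in BMM and 8 in each other culture, with a summed level of 433.1, 973.2, 2059.7 and 1103.4 from BMM to mOCd. Of 5 eligible neutrophil markers 3 were called higher and 0 lower for mOCp over pOC. For mOCd over mOCp 0 of 5 were called higher and 2 lower, beside the shares of all genes just given for these comparisons. Of the 12 macrophage markers, all eligible, 9 were called at least 2-fold lower in pOC than in BMM and 0 higher, beside 13.2% and 11.1% of all genes. The part of these cells in the integrin values was not tested.

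The fibronectin receptor chains stayed closer to level. Itgb1, which pairs with many alpha chains, read 1122.2 (BMM), 732.4 (pOC), 1424.3 (mOCp) and 1203.5 (mOCd). The pOC value was the lowest, 1.53-fold below BMM and 1.94-fold below mOCp, short of 2-fold in both cases. A second bright probe set gave the same order apart from mOCd and BMM, at 1024.4, 604.2, 1158.5 and 905.9. Another was dim, with 4.9 in pOC, under the floor, against 72.5 in BMM, and the other 3 probe sets were under the floor on all arrays.

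Itga4, which with Itgb1 binds VCAM-1 and fibronectin, read 326.8 (BMM), 383.5 (pOC), 304.3 (mOCp) and 361.1 (mOCd) on its brightest probe set, a range of 1.26-fold. The next 3 probe sets were lower on dentin, with log2 ratios of mOCd over pOC of -0.76, -2.14 and -0.73 against -0.09 on the brightest. Of these, 1 counted as lower, at 91.9 in pOC and 20.8 in mOCd.

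Itga5, the alpha chain of the fibronectin receptor, read 297.2, 234.1, 280.1 and 461.5 from BMM to mOCd. The dentin value was the highest, 1.97-fold above pOC and just short of 2-fold. Its second probe set read 134.0, 100.0, 152.8 and 118.0 and put mOCp highest, so the step to dentin differed between the probe sets, at 0.98 and 0.24 on the log2 scale.

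Several genes had probe sets that disagreed where dentin was compared. Counting only those further probe sets that, like the one that stood for their gene, exceeded the floor on both arrays and reached the 75th percentile on either, 7 of 8 gave a lower mOCd over pOC ratio than the probe set that stood for their gene, with a median log2 difference of -0.8. For mOCd over mOCp it was 6 of 7 with a median of -1.02. For mOCp over pOC the count was 6 of 8 with a median of -0.07, and for pOC over BMM 5 of 9 with a median of -0.08. Over all named genes the lower share was 55.4% of 4338 further probe sets for mOCd over pOC (median -0.07), 54.9% for mOCd over mOCp, 50.6% for mOCp over pOC and 47.3% for pOC over BMM. Further probe sets of the same gene, as for Itgav and Itga4, share a reference and are not separate observations. That reference was itself chosen by its mean over these arrays, so the counts are a description. The transferrin receptor 3′ over 5′ signal was highest on the dentin array. The other controls were not, with Actb at 1.21 in mOCd and 1.22 in pOC, and Gapdh at 0.791 in mOCd and 0.815 in mOCp. The part of RNA quality in these probe-set differences was not tested.

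**Figure D2:**
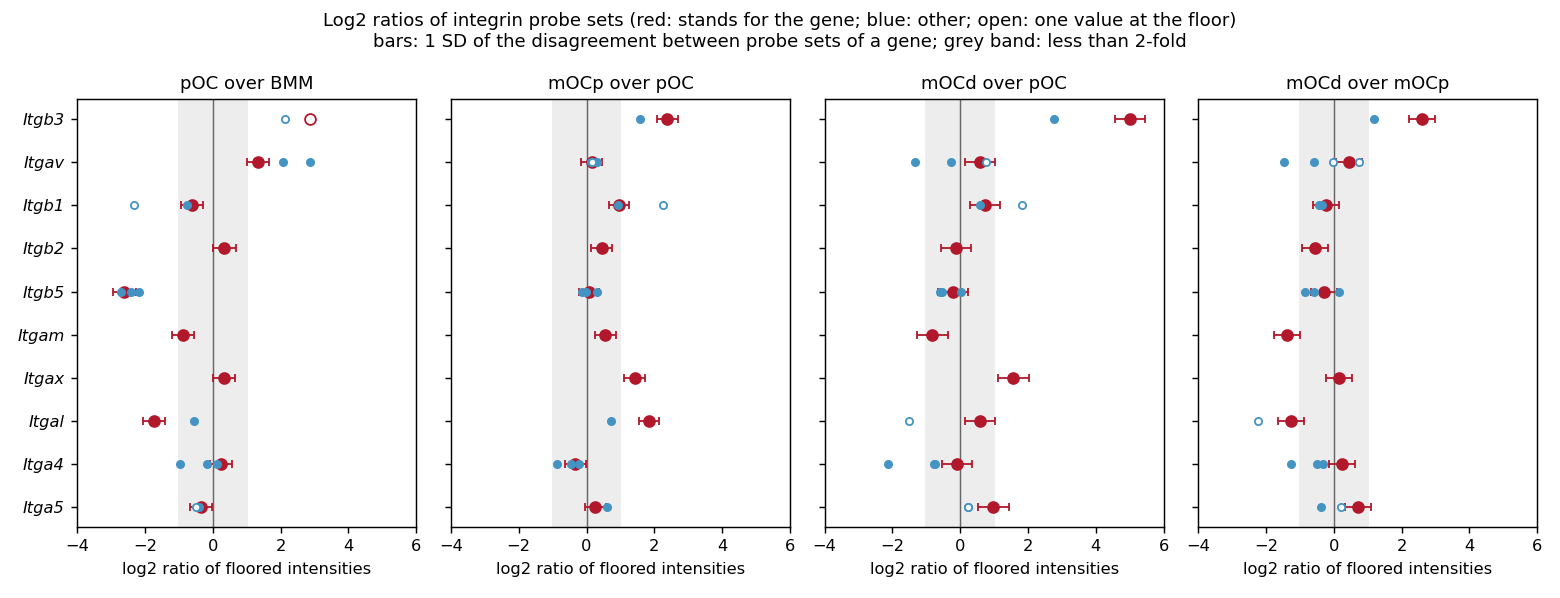
Log2 ratio of floored intensities for each integrin gene in the 4 comparisons. Red points stand for the gene with bars of 1 SD of the probe-set disagreement, blue points are further probe sets, open points are bounds, and the grey band is less than 2-fold. Itgb3 lies to the right in every panel, and the filled blue points of Itgav and Itga4 lie left of the red ones where mOCd is compared with pOC, while the open point of Itgav, a bound at 0.77, lies right of its red one.

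Among the 10 genes, 9 were bright enough to be counted for pOC over BMM, of which 2 were higher (Itgb3, Itgav) and 2 lower (Itgb5, Itgal), where 11.1% of all eligible genes were higher and 13.2% lower. For mOCp over pOC 3 of 10 were higher (Itgb3, Itgal, Itgax), with a background of 8.8%, and 0 lower, with 11.4%. For mOCd over pOC 2 of 9 were higher (Itgb3, Itgax) against 10.8%, and 0 lower against 12.3%. For mOCd over mOCp 1 of 10 was higher (Itgb3) against 2.15%, and 2 were lower (Itgam, Itgal) against 2.55%. A gene could enter these counts through the array where it was bright, so entry and call used the same values and the shares are a description. The median log2 ratio of the 10 genes was -0.06 for pOC over BMM, 0.5 for mOCp over pOC, 0.59 for mOCd over pOC and -0.04 for mOCd over mOCp, beside 0.17, 0.03, 0.09 and 0.05 over all measured genes. All these comparisons share arrays. The pOC array enters pOC over BMM and the comparisons of mOCp and mOCd with pOC, and the mOCp and mOCd arrays recur in mOCd over mOCp. Opposite steps of a gene on either side of a shared array, such as those of Itgal, are therefore not independent.

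The rest of the family was mostly dim. Of 14 further integrin subunits with a probe set 8 exceeded the floor somewhere, and 2 or 3 were bright enough to be counted in each comparison. For pOC over BMM 1 of 3 was higher and 2 were lower, where 11.1% and 13.2% of all eligible genes were. Itga6, a laminin receptor chain, read 1805.6 (BMM), 288.0 (pOC), 127.1 (mOCp) and 192.8 (mOCd). It was 6.27-fold lower in pOC than in BMM, and 9.35-fold lower on its other probe set. The further step to mOCp, 2.27-fold lower, was 1.55-fold on the other probe set.

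Itga8 went from 129.4 in BMM to 18.1 in pOC, 7.15-fold lower, and read 36.9 in mOCp and 21.9 in mOCd. Itgb7, a leukocyte beta chain that pairs with Itga4, was 3.22-fold higher in pOC, at 63.7 in BMM and 205.3, 170.1 and 166.8 afterwards. Its later values differed by no more than the disagreement. Itga2, a collagen receptor chain, was the other subunit besides Itgb3 called at least 2-fold higher on dentin than on plastic. It read 79.9 against 33.8 (2.36-fold), with 8.2 in BMM, under the floor, and 25.9 in pOC. The dentin value of Itga2 was close to the 75th percentile, 79.1, that let it be counted.

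**Figure D3:**
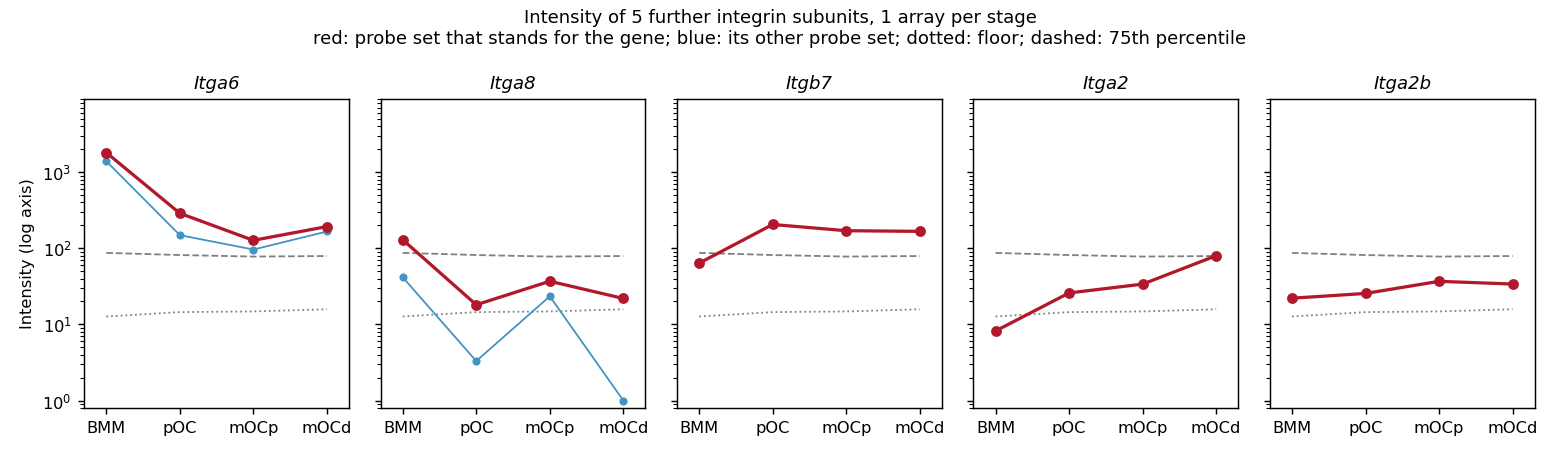
Intensity on a log axis against stage for 5 further integrin subunits, 1 array per point, with values under 1 drawn at 1 and the floor and 75th percentile as lines. Itga6 and Itga8 are highest in BMM, Itgb7 steps up in pOC, Itga2 is highest in mOCd at 79.9, and Itga2b stays under the dashed line.

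Ligands made by the cultures themselves were read next. Of 27 with a probe set 20 were measured, with median log2 ratios of 0.12 for pOC over BMM, 0.09 for mOCp over pOC, 0.12 for mOCd over pOC and -0.03 for mOCd over mOCp, to be read against the medians over all genes given above. Edil3, a secreted RGD protein that binds Itgav integrins, read 28.9 (BMM), 231.8 (pOC), 1438.1 (mOCp) and 1598.0 (mOCd), 8.02-fold higher in pOC than in BMM and 6.2-fold higher in mOCp than in pOC. Its second bright probe set read 25.0, 213.3, 1397.0 and 616.4, which put dentin below plastic, while a dimmer one, at 14.5 on plastic and 95.4 on dentin, was at least 6.45-fold higher on dentin. Mfge8, its relative that bridges apoptotic cells to Itgav integrins, was 6.2-fold higher in mOCp and 6.77-fold higher in mOCd than in pOC, from 156.3 to 968.9 and 1057.6. Tgfbi, a matrix protein bound by several integrins, went the other way, from 1859.5 in BMM and 1167.1 in pOC to 344.6 in mOCp and 193.0 in mOCd, lower on all 4 probe sets in both mature cultures. Icam1, the ligand of the Itgb2 integrins, was 3.02-fold lower in mOCd than in pOC (320.4 to 106.0). In mOCd over pOC 2 of 8 eligible ligands were higher and 3 lower, beside 10.8% and 12.3% of all genes. In mOCd over mOCp 0 of 8 were called, beside 2.15% higher and 2.55% lower.

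Among proteins that switch integrins on or join them to actin, pOC over BMM gave 5 higher and 5 lower of 25 eligible, beside 11.1% and 13.2% of all genes. The medians of the 33 measured genes were 0.19, 0.26, 0.16 and 0.03 in the order of comparisons used above. Both proteins that bind the beta tail to activate it were near level. Talin-1 (Tln1) read 926.1, 1117.2, 1430.8 and 1122.0, and kindlin-3 (Fermt3) 2505.9, 2388.7, 2142.9 and 1749.3, with no ratio of 2-fold on any of their probe sets. The actin linker vinculin (Vcl) read 258.2, 575.0, 1119.7 and 1590.3 from BMM to mOCd, although its other probe set put mOCp (217.4) above mOCd (130.1). Paxillin (Pxn), a scaffold of adhesion sites, was 2.29-fold higher in pOC than in BMM, and zyxin (Zyx), another adhesion protein, 4.02-fold lower.

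On dentin 4 of 24 eligible adaptors were higher than in pOC and 1 lower, beside 10.8% and 12.3% of all genes. Parvb, the adaptor beta-parvin, read 213.0 (BMM), 349.1 (pOC), 548.7 (mOCp) and 1422.8 (mOCd), 4.08-fold above pOC, but 1.67-fold on its dim second probe set. Tensin-1 (Tns1), which links the beta tail to actin, was 4.14-fold higher in mOCd than in pOC, and 3.01-fold and 3.18-fold on its other probe sets. It also exceeded mOCp on all 3, by 2.68-fold, 2.0-fold and 3.77-fold. Lims2, a LIM adaptor of integrin-linked kinase, was highest on plastic, with 398.2 against 156.0 on dentin and 108.1 in pOC.

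Signalling genes downstream of integrins included genes on both sides. In pOC over BMM 6 of 29 eligible were higher and 8 lower, beside 11.1% and 13.2% of all genes. The medians of the 30 measured genes were -0.24, 0.33, 0.33 and 0.08. Src, the tyrosine kinase needed for the ruffled border, went from 4.4, under the floor, to 203.4 and was at least 9.34-fold higher on its other probe set. Dock5, an activator of Rac in osteoclasts, was 8.06-fold to 9.02-fold higher on its 3 probe sets. The kinase Ptk2b (Pyk2) and the exchange factor Vav3, which act below the receptor, were 2.25-fold and 2.34-fold lower. In mOCd over pOC 7 of 28 were higher (Bcar1, Cblb, Dock5, Git1, Ptk2b, Syk and Vav3) and 0 lower, beside 10.8% and 12.3% of all genes. Dock5 reached 2-fold on 1 of its 3 probe sets, and another was 1.2-fold lower. Ptk2b reached 349.0 from 111.5 (3.13-fold), but its other probe set read 80.3 against 81.4. Cblb, a ubiquitin ligase, was 3.16-fold higher and 2.57-fold and 7.86-fold on its other probe sets, whereas Syk, a kinase recruited to the receptor, was 2.39-fold higher on 1 probe set and from 1.14-fold lower to 1.3-fold higher on its other bright ones. In mOCp over pOC 2 of 28 were higher, Vav3 (2.34-fold) and Fgr (3.15-fold), and 0 lower, beside 8.8% and 11.4% of all genes.

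Of the tetraspanins and other membrane partners, which sit beside integrins in the membrane, 11 were measured, with medians of -0.37, 0.83, 0.26 and -0.48. In pOC over BMM 1 was higher and 4 were lower, beside 11.1% and 13.2% of all genes. Among the lower was Cd81 (1523.6 to 203.5, 7.49-fold). In mOCd over mOCp 3 were lower and 0 higher, beside 2.55% and 2.15% of all genes. They were Cd81 (3.38-fold), Cd9 (2.08-fold) and Plaur, the urokinase receptor (2.21-fold).

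**Figure D4:**
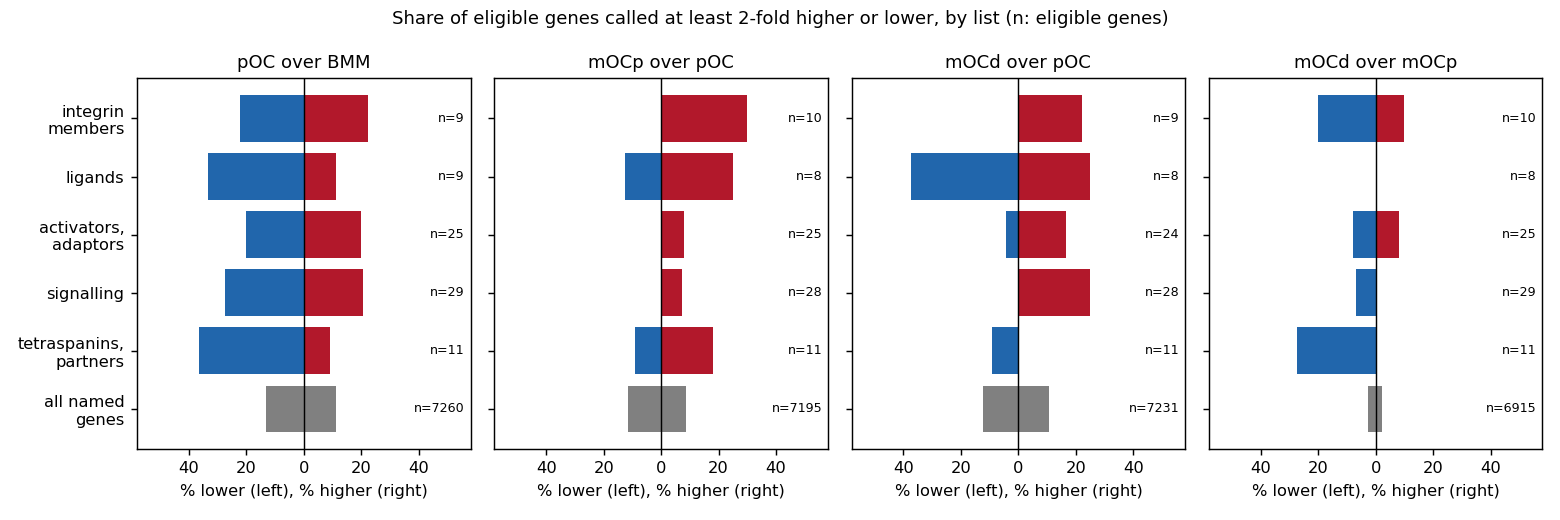
Share of eligible genes in percent called at least 2-fold lower (left, blue) or higher (right, red) in the 4 comparisons, for the integrin genes and the lists of ligands, adaptors, signalling genes and membrane partners. Grey bars are all named genes and n is the number of eligible genes. In mOCd over pOC the signalling bar, 7 of 28, lies on the higher side with 0 lower, beside 10.8% higher over all named genes.

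Genes with the most similar course were found among 7794 genes that reached the 75th percentile on some array. Likeness was the root mean square difference of the floored log2 values after each gene was centred on its own mean of the 4 arrays. A gene's mean level therefore did not count, while the shape and the size of its changes both did. For Itgb3 the nearest were Atp1b1, a sodium pump subunit (0.72), the phosphatase Ptpn3 (0.89), Cfap45 (0.9), the small GTPase Rab38 (0.96) and the calcineurin regulator Rcan2 (0.97). Atp1b1 read 0.3, 132.5, 730.7 and 1291.0 from BMM to mOCd. Rcan2 read 0.3, 7.2, 151.7 and 780.4, with both early values under the floor. The smallest difference for Itgb3, 0.72, was above all of those for the other 3 subunits. These differences were not scaled for range. The highest floored value was 231-fold above the lowest for Itgb3, and 3.77-fold for Itgav, 3.74-fold for Itgax and 3.24-fold for Itgam. For Itgav the nearest genes were Csrnp1, Shtn1, Dusp28, Akap7 and Fgd6, at 0.06 to 0.08. For Itgax they included Pxk (0.03), Rhbdd1, the collagen prolyl hydroxylase P4ha1 and the lipid droplet protein Plin3 (0.08). For Itgam they were Igsf6 (0.11), Plaur (0.12), Cebpd, Cnnm4 and Nostrin (0.15). Plaur, a known membrane partner of Itgam, read 586.2, 268.7, 401.4 and 181.9, the same order as Itgam.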

How the data were processed

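RNA of 4 cultures was measured on 1 single-channel array each. The deposited values are linear intensities of probe sets. The submitters' processing notes list MAS5 and state no version. On every array the mean after trimming 2% from each end was 100.0, so the deposited intensities had been scaled to a common level, which removes differences in total mRNA. MAS5 subtracts background, which leaves dim values imprecise, and detection calls were not used here.

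Of 45037 non-control probe sets 34945 carried exactly 1 symbol, 932 several and 9160 were not listed. All 10 members matched a RefSeq gene (GRCm38.p6) by Entrez identifier. Intensities were floored at the 50th percentile, and a call needed a 2-fold ratio with the brighter value at the 75th percentile or above. With 1 array per group no test was run. Named genes were the members with all their probe sets, the fixed lists, and for Itgb3, Itgav, Itgax and Itgam the 5 genes of nearest profile. Members and lists were chosen with earlier results of these data known, and the motifs and the printed windows after the values were seen. Alternatives were 4 other normalizations (limma 3.58.1 for quantile and cyclic loess), other floors, a lower brightness threshold, a pseudocount of 16 and other choices of probe set. Computation used Python 3.11.15 and R 4.3.3, and the call rule was tested on simulated data. The spike-in scaling used control probe sets above the floor, which left out the dim BioB ones. Lymphoid, stromal and endothelial marker lists were also read: of 9, 11 and 8 genes with a probe set at most 2, 5 and 3 exceeded the floor on any array.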

Additional observations from a re-analysis of the deposited data

Results flagged for a closer look

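Itgam lay on opposite sides of pOC in the mature cultures, with a log2 ratio of 0.55 for mOCp over pOC and -0.82 for mOCd over pOC, each larger than the probe-set disagreement of that comparison (0.306 and 0.445). With spike-in scaling the ratios were 0.12 and -1.17, so that the first lay within the disagreement. Both ratios share the pOC array, each rests on 1 array per culture and 1 probe set, and the difference was not tested.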

How the results depend on the processing

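Of 12 calls on the integrin genes 10 held under all 10 alternatives and 0 ratios that were called changed sign. The exceptions were Itgb3 for pOC over BMM with the mean over probe sets, which left 1 gene higher instead of 2 (log2 ratio 2.5, no longer bright enough), and Itgax for mOCp over pOC with spike-in scaling (0.98). Spike-in scaling also added Itgam as 1 gene lower for mOCd over pOC, where there had been 0 (log2 ratio -1.17), and median scaling called Itgam lower for pOC over BMM (-1.07). Of 80 counts 78 stayed within 1.5 times, and of 400 single ratios 367 moved by less than the probe-set disagreement. Many of these ratios could not move. A brightness threshold does not enter a ratio, and the other floors could change only the Itgb3 bound for pOC over BMM. The choice of probe set cannot move a gene with 1 probe set. These totals therefore overstate how far the ratios were tried. The bound of Itgb3 for pOC over BMM moved with the floor, from 1.93 at the 60th percentile to 3.51 at the 40th. Its mOCd over mOCp ratio ranged from 1.9 to 2.69. Itga5 for mOCd over pOC ranged from 0.24 to 1.06, and 2 settings called it higher. No paired analysis was possible because each group has 1 array. Leaving out a replicate was not possible for the same reason. Probe sets near the floor carry no order, which limits Itgb3 in BMM and the dim probe sets of Itgav, Itgb1, Itga4 and Itga5.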
